A study of Mus musculus with 34 samples.

Results

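A set of 10 genes of growth arrest and stress was examined in a mouse mammary adenocarcinoma line whose glucocorticoid receptor (GR) had been replaced by tagged mutants. The 10 genes were chosen by name: the cyclin-dependent kinase inhibitors Cdkn1a, Cdkn1b and Cdkn1c, the stress proteins Gadd45a, Gadd45b and Gadd45g, the Polo-like kinases Plk2 and Plk3, the antiproliferative gene Btg2 and the growth-arrest-specific gene Gas1. They are 10 of 55341 gene names in the count files, and all 10 were found. The cells derive from a line whose own receptor was knocked out (GRKO), and each line stably expressed a GFP-tagged mouse GR. Beside WT, the receptors were the mutants Y551A and D647V and their derivatives Y551A-Dim and D647V-Tetra, where the first parts of the names follow the notation of amino acid substitutions. Every line was kept for at least 24 h in medium with 10% charcoal/dextran-treated serum and 5 µg/ml tetracycline, and was then treated for 2 h with the synthetic glucocorticoid dexamethasone (Dex, 100 nM) or with ethanol (EtOH). How many clones stand behind each line is not given in the sources used here. A difference between lines, in ethanol or in the response to hormone, therefore cannot be told apart from a difference between clones.

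The 34 libraries form 2 sets by the number ranges of their titles. The 18 libraries of set 1 are 3 for each treatment of WT, of Y551A and of Y551A-Dim. The 16 of set 2 are 2 for each treatment of WT, and 3 for each treatment of D647V and of D647V-Tetra. Libraries held between 44998213 and 70124595 counts in set 1 and between 60277930 and 79776573 in set 2. Lines were compared only within a set. Levels are CPM, counts scaled to a common library total with TMM factors, and a change is the log2 ratio from edgeR's quasi-likelihood test, called at a Benjamini-Hochberg adjusted p below 0.05 over all genes tested. Nr3c1, the receptor gene, stood at 280 CPM ± 5.81 (SD, n = 3) in WT in ethanol of set 1 and at 339 CPM ± 3.12 (SD, n = 2) in set 2. Against WT of its set in ethanol, Nr3c1 was higher by 0.30 (log2, SE 0.03) in Y551A and by 0.15 (SE 0.03) in Y551A-Dim, and lower in D647V (-0.24, SE 0.05) and in D647V-Tetra (-0.37, SE 0.05). The files do not tell the tagged receptor's transcripts from any other transcripts of that gene. The labelled cell type was a mammary adenocarcinoma. Of 6 luminal epithelial markers, Epcam (0 CPM in all WT ethanol libraries), Cdh1 (0.0209 CPM in set 1) and Krt18 (0.0209 CPM in set 1) were at or near 0. In WT in ethanol of set 1 the 6 summed to 4.75 CPM, mostly Esr1, with 1 marker over 1 CPM. All 8 markers of mesenchymal cells were over 1 CPM there, with Vim at 4941 CPM. In bulk RNA, fewer cells of a type and less RNA per cell cannot be told apart.

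Glucocorticoids slow the growth of many cell types, and GR bound to hormone both activates and represses genes, by binding DNA itself or through other factors. Cdkn1a encodes p21, Cdkn1b p27 and Cdkn1c p57, which bind cyclin-dependent kinases and block cell cycle entry. Cdkn1a and Gadd45a are both textbook targets of p53 and are usually named together as genes that rise after DNA damage. The Gadd45 proteins activate stress kinases through Map3k4 and bind Pcna, Plk2 and Plk3 are stress-responsive kinases related to the mitotic kinase Plk1, Btg2 recruits the deadenylation machinery to mRNAs, and Gas1 is a surface protein of quiescent cells that also serves as a Hedgehog co-receptor.

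The growth arrest genes did not move as a block. In WT cells Cdkn1a, Gadd45g and Plk3 rose with dexamethasone while Gadd45a, Plk2 and Gas1 fell, in both library sets. Within the Gadd45 family and within the Polo-like pair, paralogues therefore changed in opposite directions. In Y551A-Dim 2 of those 6 changes were called, the rise of Cdkn1a and the fall of Plk2. The rise of Cdkn1a was 0.31 against 0.59 in WT (log2), a difference that did not pass the main test but passed in some alternative fits. The fall of Plk2 was -0.31 against -0.86, a difference that passed the test. Of the 6, 5 were called in Y551A and 4 in D647V. All 6 were called in D647V-Tetra, where 11.3% of all genes were called up and 7.89% down, far more than in the other lines. Among the members only the Plk2 response differed by test between D647V-Tetra and D647V.

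Counted over the list, in WT of set 1 3 members were called up, where 2% of 16140 genes were, and 3 down, where 1.4% were. In Y551A 3 were called up (1.43% of genes) and 2 down (0.415%), and in Y551A-Dim 2 up (0.898%) and 1 down (0.192%). For WT of set 2 4 members were called up, where 1.35% of 17535 genes were, and 3 down (0.376%). In D647V 2 were called up (0.804%) and 2 down (0.137%), and in D647V-Tetra 3 up (11.3%) and 4 down (7.89%). The D647V-Tetra background was far higher than that of the other lines, so its counts stand against another reference than theirs.

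Among the differences of response, 2 members were called higher than WT in Y551A, where 0.062% of all genes were. In Y551A-Dim against WT 3 were higher (0.589% of genes) and 1 lower (0.886%), and against Y551A 1 was lower (0.458%). In D647V against WT 1 was lower (0.182%), in D647V-Tetra against WT 1 was lower (0.713%), and in D647V-Tetra against D647V 1 was lower (0.0969%). The comparisons with WT within a set share their WT libraries. Between the WT responses of the 2 sets 0 members were called (edgeR, 0.0181% of 16540 genes), with 2 at an unadjusted p under 0.05 and 1 called by DESeq2.

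**Figure D1:**
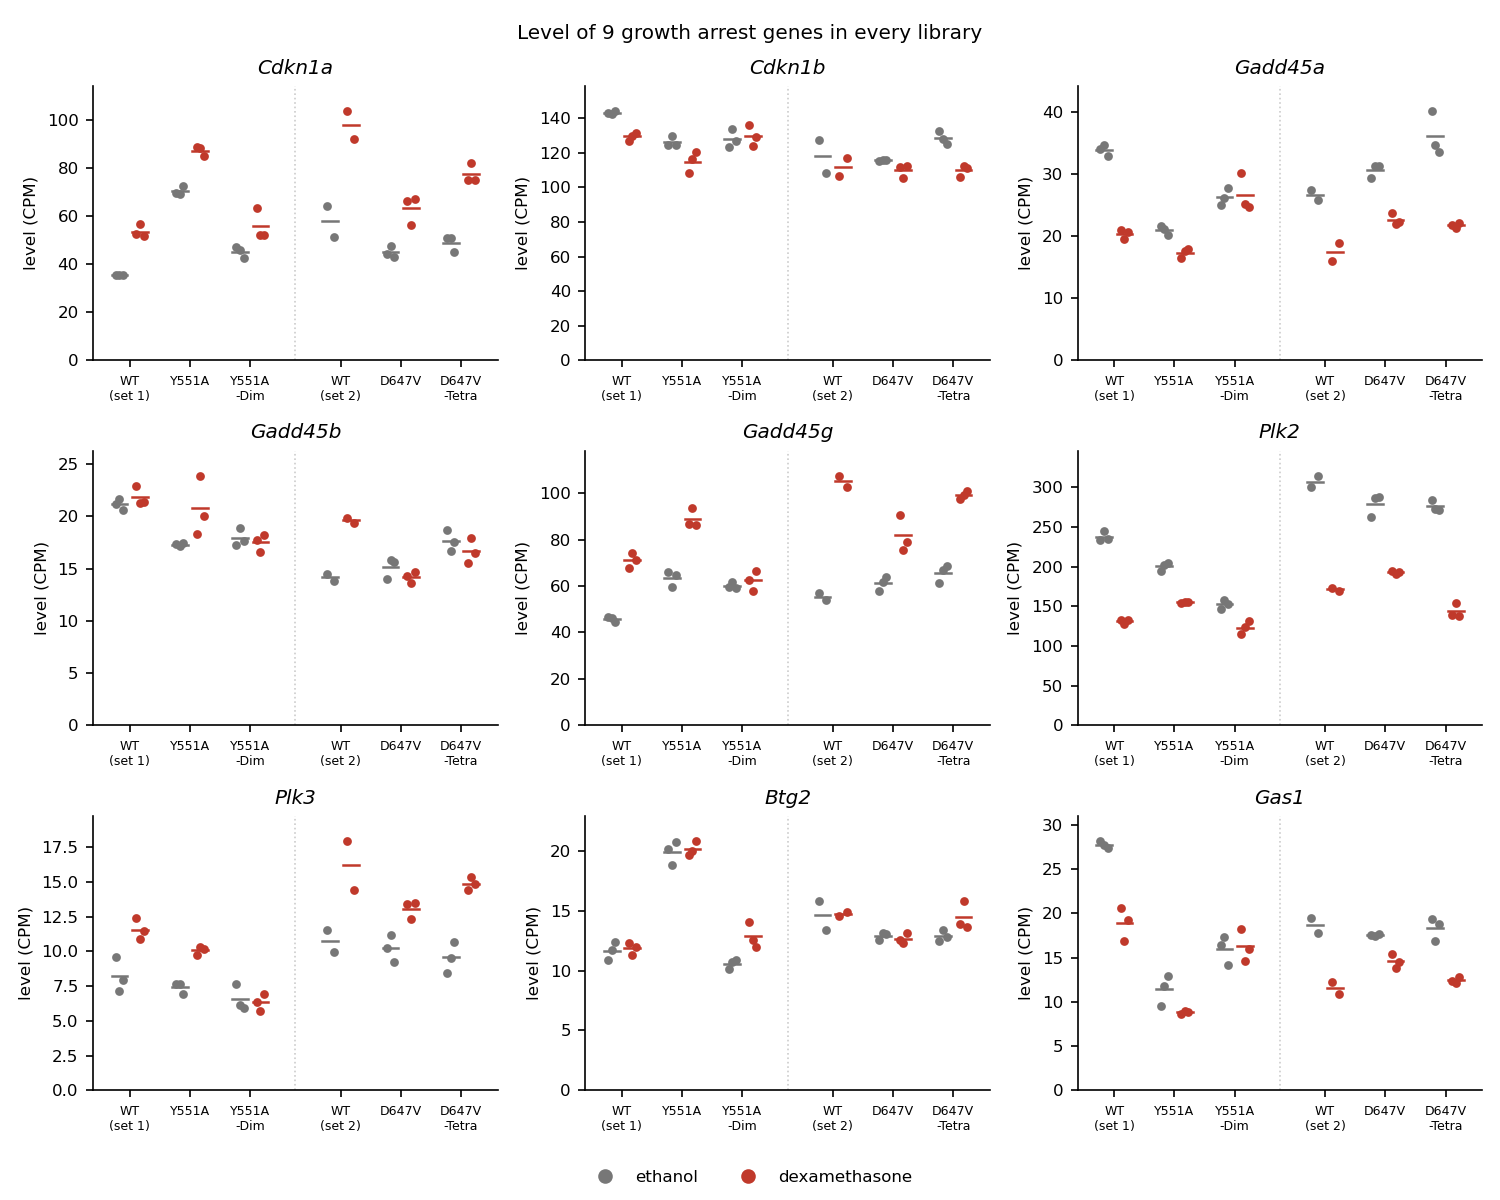
Level of 9 growth arrest genes in CPM (y axis, from 0) in every library, by line (x axis); grey points are ethanol, red points dexamethasone, bars the group means, and the dotted line separates set 1 from set 2. Cdkn1a and Gadd45g are higher and Gadd45a, Plk2 and Gas1 lower with dexamethasone in WT of both sets, while in Y551A-Dim the 2 treatments overlap for Gadd45a, Gadd45g, Plk3 and Gas1.

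Cdkn1a (ENSMUSG00000023067.14, mm10 chr17:29090976-29100727, plus strand) is the induced member that was set against the repressed ones. In WT of set 1 it stood at 35.5, 35.5 and 35.7 CPM in ethanol and at 52.4, 56.7 and 51.5 CPM with dexamethasone. All 3 treated libraries were above all 3 controls, a change of 0.59 (log2, SE 0.06, adjusted p 5.83e-08). The ethanol libraries of WT in set 2 held 51.1 and 64.3 CPM and the dexamethasone libraries 92.0 and 104 CPM, a change of 0.76 (SE 0.10, adjusted p 0.000257). The groups did not overlap, and the WT ethanol level was higher in set 2 than in set 1, a difference between sets that was not tested here.

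In Y551A Cdkn1a went from 68.9, 69.5 and 72.6 CPM in ethanol to 84.9, 88.1 and 88.5 CPM. The mutant's ethanol libraries were thus above the hormone-treated WT libraries of the same set, and the change with hormone was 0.31 (SE 0.06, adjusted p 0.00125). In Y551A-Dim it went from 42.5, 45.7 and 47.3 CPM to 52.2, 52.2 and 63.5 CPM, a change of 0.31 (SE 0.06, adjusted p 0.00488). This call was lost without ethanol replicate 3 (adjusted p 0.0533) and when only the Y551A-Dim libraries were fitted (adjusted p 0.148). The change in Y551A was 52.5% of that in WT on the log2 scale, but the differences from WT, -0.28 (95% interval -0.46 to -0.10, adjusted p 0.365) in Y551A and -0.28 (interval -0.46 to -0.10, adjusted p 0.117) in Y551A-Dim, did not pass the test. Over the alternative fits (edgeR or DESeq2), their adjusted p ranged from 0.0205 to 0.604 in Y551A and from 0.000768 to 0.331 in Y551A-Dim. In D647V the gene went from 42.9, 44.1 and 47.5 CPM to 56.4, 66.3 and 67.2 CPM, a change of 0.50 (SE 0.09, adjusted p 0.00406). In D647V-Tetra it went from 44.9, 50.7 and 50.9 CPM to 74.8, 74.8 and 82.1 CPM, a change of 0.66 (SE 0.09, adjusted p 6.02e-05). Cdkn1a was the 1 member called up in all 6 responses.

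The 250 bases before each RefSeq start (GRCm38.p6) were searched on both strands for 7 motifs in all 32851 windows of the table. The motifs were a GR palindrome (GNACANNNTGTNC in 0.387% of windows), a GR half-site (AGAACA, 16.1%), the cyclic AMP response element or CRE (TGACGTCA, 1.55%), an AP-1 element (TGANTCA, 6.75%), the octamer (ATTTGCAT, 1.60%), an E-box (CACGTG, 6.02%) and the p53 half-site (7.13%). The table held 10 windows for 9 of the 10 members, with 2 for Cdkn1a. None of the 10 windows held the GR palindrome, the GR half-site or the AP-1 element as spelled here, which says only that these letters are not in these windows. The upstream Cdkn1a window (chr17:29090729-29090978, plus strand) is shown because it held the p53 half-site at 2 places, in capitals; the other Cdkn1a window held no match.
Cdkn1a: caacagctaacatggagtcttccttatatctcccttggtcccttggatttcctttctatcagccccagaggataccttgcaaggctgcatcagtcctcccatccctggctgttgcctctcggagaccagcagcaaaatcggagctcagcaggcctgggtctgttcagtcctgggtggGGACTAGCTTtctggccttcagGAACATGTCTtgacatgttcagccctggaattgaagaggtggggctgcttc

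Gadd45a (ENSMUSG00000036390.8, chr6:67035096-67037457, minus strand) moved against Cdkn1a. In WT of set 1 it stood at 33.0, 33.99 and 34.8 CPM in ethanol and at 19.6, 20.7 and 21.1 CPM with dexamethasone, a fall of -0.73 (log2, SE 0.07, adjusted p 5.26e-09). Set 2 gave the same picture in WT, from 25.8 and 27.4 CPM to 16.1 and 18.9 CPM (-0.61, SE 0.09, adjusted p 0.000419). The treated libraries were below the controls in both sets. In Y551A it went from 20.2, 21.2 and 21.6 CPM to 16.5, 17.7 and 17.9 CPM (-0.27, SE 0.07, adjusted p 0.0261), starting in ethanol from the level that WT reached with hormone. That call was lost without dexamethasone replicate 1 (adjusted p 0.155) or 2 (0.0636) and without ethanol replicate 1 (0.156) or 2 (0.109). In Y551A-Dim the ethanol libraries held 25.0, 26.1 and 27.8 CPM and the dexamethasone libraries 24.7, 25.2 and 30.2 CPM. These groups overlapped, and the change was 0.023 (95% interval -0.12 to 0.16, adjusted p 0.956).

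The Gadd45a response differed from WT by 0.75 (SE 0.09, adjusted p 3.43e-06) in Y551A-Dim. In Y551A the difference was 0.46 (SE 0.09, adjusted p 0.0339), and 11 of the 12 fits that each left out 1 library lost that call, with adjusted p from 0.0621 to 0.153; the exception was the fit without Y551A dexamethasone replicate 1. In D647V Gadd45a went from 29.4, 31.3 and 31.4 CPM to 22.0, 22.3 and 23.7 CPM (-0.44, SE 0.07, adjusted p 0.00199). In D647V-Tetra it went from 33.5, 34.7 and 40.2 CPM to 21.3, 21.8 and 22.1 CPM (-0.73, SE 0.07, adjusted p 2.02e-06). Neither differed from WT past the threshold, with intervals of -0.077 to 0.42 for D647V and -0.37 to 0.13 for D647V-Tetra.

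Gadd45g (ENSMUSG00000021453.2, chr13:51846678-51848468, plus strand), the paralogue with the highest level per length in WT in ethanol (39.0 CPM per kb of exon in set 1, against 19.2 for Gadd45a and 13.3 for Gadd45b), rose where Gadd45a fell. In WT of set 1 it went from 44.4, 46.2 and 46.8 CPM to 67.8, 71.0 and 74.3 CPM (0.63, SE 0.05, adjusted p 8.06e-10). WT of set 2 went from 53.8 and 56.9 CPM to 103 and 107 CPM (0.93, SE 0.08, adjusted p 5.49e-07). The groups were apart in both sets, and the rise was called as well in Y551A (0.49, SE 0.05, adjusted p 1.74e-07), D647V (0.42, SE 0.06, adjusted p 0.00101) and D647V-Tetra (0.60, SE 0.06, adjusted p 6.46e-06). In Y551A-Dim the ethanol libraries held 59.2, 59.5 and 61.8 CPM and the dexamethasone libraries 58.0, 62.8 and 66.7 CPM. These overlapped, with a change of 0.057 (interval -0.054 to 0.17, adjusted p 0.769). The response in Y551A-Dim differed from that in WT (-0.58, SE 0.07, adjusted p 6.08e-06) and from that in Y551A (-0.43, SE 0.07, adjusted p 0.000908). In D647V its difference from WT was -0.51 (interval -0.73 to -0.28) at an adjusted p of 0.0520. Over the alternative fits (edgeR or DESeq2), that adjusted p ranged from 3.93e-05 to 0.287.

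Both paralogues that changed in opposite directions carry the octamer before their starts, in capitals below. Gadd45a (chr6:67037408-67037657, minus strand) held it at 2 places, once on each strand, and also a p53 half-site; Gadd45g (chr13:51846425-51846674, plus strand) held it once, after an E-box.
Gadd45a: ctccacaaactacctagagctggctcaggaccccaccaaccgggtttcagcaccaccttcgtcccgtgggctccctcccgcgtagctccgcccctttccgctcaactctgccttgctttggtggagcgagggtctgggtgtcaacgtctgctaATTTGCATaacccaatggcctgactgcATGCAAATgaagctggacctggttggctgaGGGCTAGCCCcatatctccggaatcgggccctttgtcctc
Gadd45g: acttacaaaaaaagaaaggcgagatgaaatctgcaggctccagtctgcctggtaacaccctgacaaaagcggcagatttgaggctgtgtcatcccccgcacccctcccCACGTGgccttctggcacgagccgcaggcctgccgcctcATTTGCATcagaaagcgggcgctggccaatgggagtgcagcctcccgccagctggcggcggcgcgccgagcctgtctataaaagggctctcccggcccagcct

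Gadd45b (ENSMUSG00000015312.9, chr10:80930073-80932204, plus strand) was the member whose WT response was not the same call in both sets. It stood at 20.6 to 21.7 CPM in ethanol and 21.3 to 22.9 CPM with dexamethasone in WT of set 1 (0.048, interval -0.10 to 0.20, adjusted p 0.900). In WT of set 2 it went from 13.9 and 14.5 CPM to 19.4 and 19.8 CPM (0.47, SE 0.08, adjusted p 0.00346), a call that was lost without ethanol replicate 2 (adjusted p 0.0687) or dexamethasone replicate 1 (0.0501). The difference between the sets was 0.41 (interval 0.19 to 0.62, adjusted p 0.315). In no mutant line was Gadd45b called with hormone. Its change was 0.26 (interval 0.11 to 0.41, adjusted p 0.0577) in Y551A, with adjusted p from 0.00349 to 0.520 when 1 library was left out. It was -0.034 (interval -0.19 to 0.12) in Y551A-Dim, -0.094 (interval -0.25 to 0.058) in D647V and -0.082 (interval -0.23 to 0.069) in D647V-Tetra. Against WT of set 2, the response was lower by -0.56 (SE 0.11, adjusted p 0.0423) in D647V and by -0.55 (SE 0.11, adjusted p 0.00946) in D647V-Tetra. For D647V the call was lost in 9 of the 10 fits that left out 1 library, with adjusted p from 0.0764 to 0.253, the exception being the fit without D647V ethanol replicate 1, and also with DESeq2's size factors (0.0506) and with only the groups compared (0.0613); for D647V-Tetra it was lost without WT ethanol replicate 2 (adjusted p 0.0848) or WT dexamethasone replicate 2 (0.0557). Both differences share the 4 WT libraries of set 2.

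Plk2 (ENSMUSG00000021701.8, chr13:110395046-110400844, plus strand) was the member with the lowest adjusted p in WT. It went from 233, 235 and 246 CPM in ethanol to 127, 132 and 133 CPM in set 1 (-0.86, SE 0.04, adjusted p 1.57e-14). In set 2 it went from 300.2 and 314 CPM to 169.8 and 173 CPM (-0.84, SE 0.06, adjusted p 8.70e-08). The fall was of nearly the same size in both, with a difference between sets of 0.0055 (interval -0.14 to 0.15).

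In Y551A Plk2 went from 195, 202 and 205 CPM to 155, 156 and 156 CPM (-0.37, SE 0.04, adjusted p 7.96e-07), and in Y551A-Dim from 147, 153 and 157 CPM to 115, 123 and 132 CPM (-0.31, SE 0.04, adjusted p 5.93e-05). Treated libraries lay below controls in both lines, but the fall was smaller than in WT by 0.49 (SE 0.06, adjusted p 4.78e-05) and 0.55 (SE 0.06, adjusted p 3.73e-07). Between Y551A-Dim and Y551A it differed by 0.062 (interval -0.066 to 0.19). In D647V Plk2 went from 263, 286 and 288 CPM to 191, 193 and 195 CPM (-0.53, SE 0.05, adjusted p 4.18e-06), and in D647V-Tetra from 272, 273 and 284 CPM to 138, 139.5 and 154 CPM (-0.94, SE 0.05, adjusted p 7.75e-10). The difference between these lines, -0.41 (SE 0.07, adjusted p 0.00902), was the 1 difference of response between D647V-Tetra and D647V that was called among the members. Plk2 was the 1 member called down in all 6 responses.

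Plk3 (ENSMUSG00000028680.14, chr4:117128655-117133963, minus strand) rose where Plk2 fell. It went from 7.14, 7.93 and 9.61 CPM to 10.9, 11.4 and 12.4 CPM in WT of set 1 (0.49, SE 0.10, adjusted p 0.00346) and from 9.94 and 11.5 CPM to 14.4 and 17.9 CPM in WT of set 2 (0.60, SE 0.12, adjusted p 0.0122). At these low levels the SE was the highest of the called members. The call in set 2 was lost without ethanol replicate 2 (adjusted p 0.227) or dexamethasone replicate 1 (0.246) and when only the WT libraries were fitted (0.0512). It was called in Y551A (0.44, SE 0.11, adjusted p 0.0206) and D647V-Tetra (0.63, SE 0.10, adjusted p 0.000421), and not in D647V (0.36, interval 0.13 to 0.58, adjusted p 0.169). The call in Y551A was lost without dexamethasone replicate 2 (adjusted p 0.0931) or 3 (0.0803) or without ethanol replicate 1 (0.0540), 2 (0.0560) or 3 (0.147). In Y551A-Dim Plk3 stood at 5.93 to 7.67 CPM in ethanol and 5.67 to 6.96 CPM with dexamethasone, which overlapped, and the difference from WT was -0.55 (interval -0.87 to -0.22, adjusted p 0.0728). Over the alternative fits (edgeR or DESeq2), that adjusted p ranged from 0.00900 to 0.307.

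**Figure D2:**
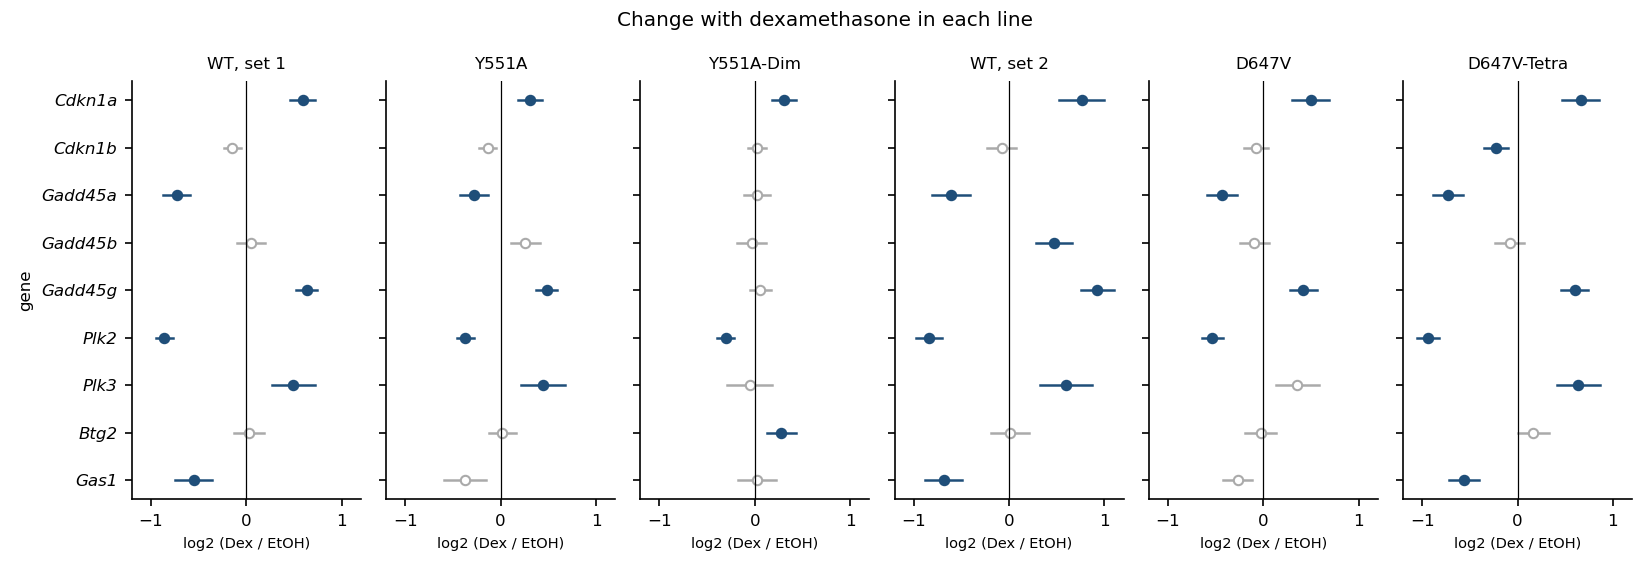
Change with dexamethasone (x axis, log2 of Dex over EtOH) of 9 members (y axis) in each line; lines are 95% intervals, filled blue points passed an adjusted p of 0.05 and open grey points did not. Cdkn1a lies right and Plk2 left of 0 in all 6 panels, Gadd45a lies opposite to Gadd45g and Plk2 opposite to Plk3 in the WT panels, and in Y551A-Dim the points of Gadd45a, Gadd45g and Gas1 lie at 0.023, 0.057 and 0.026.

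The CRE stood before the starts of Plk2 (chr13:110394794-110395043, plus strand), which fell in every line, and of Btg2 (chr1:134079156-134079405, minus strand), which was called in 1 line only. Both windows are shown with the CRE in capitals; it lies 62 to 55 bases before the start in Plk2 and 166 to 159 bases before it in Btg2.
Plk2: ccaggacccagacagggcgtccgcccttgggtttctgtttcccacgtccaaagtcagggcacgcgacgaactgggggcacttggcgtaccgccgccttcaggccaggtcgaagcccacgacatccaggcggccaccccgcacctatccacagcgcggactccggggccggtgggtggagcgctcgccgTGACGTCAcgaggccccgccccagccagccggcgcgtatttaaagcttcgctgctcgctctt
Btg2: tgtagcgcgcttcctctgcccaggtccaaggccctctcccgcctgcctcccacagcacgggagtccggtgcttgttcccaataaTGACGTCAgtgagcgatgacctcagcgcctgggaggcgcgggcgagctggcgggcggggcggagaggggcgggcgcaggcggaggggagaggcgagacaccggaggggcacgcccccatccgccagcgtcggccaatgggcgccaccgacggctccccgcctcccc

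Btg2 (ENSMUSG00000020423.6, chr1:134075170-134079120, minus strand) ranged from 10.9 to 12.4 CPM in ethanol and from 11.3 to 12.3 CPM with dexamethasone in WT of set 1, a change of 0.028 (interval -0.13 to 0.18). The change in WT of set 2 was 0.013 (interval -0.19 to 0.21). It rose in Y551A-Dim, from 10.1, 10.7 and 10.9 CPM to 12.0, 12.6 and 14.0 CPM (0.28, SE 0.07, adjusted p 0.0466), a line in which 2 other members, Cdkn1a and Plk2, were called. This call was lost without dexamethasone replicate 1 (adjusted p 0.489) or without ethanol replicate 1 (0.234), 2 (0.133) or 3 (0.0854), and when only the Y551A-Dim libraries were fitted (0.328).

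Gas1 (ENSMUSG00000052957.8, chr13:60174405-60177365, minus strand) fell in WT of set 1 from 27.4, 27.7 and 28.2 CPM to 16.9, 19.2 and 20.7 CPM (-0.55, SE 0.09, adjusted p 0.000120). It fell in WT of set 2 from 17.8 and 19.5 CPM to 10.9 and 12.2 CPM (-0.69, SE 0.09, adjusted p 8.05e-05) and in D647V-Tetra (-0.56, SE 0.07, adjusted p 3.33e-05). In Y551A (-0.37, interval -0.59 to -0.15, adjusted p 0.0525) and D647V (-0.27, interval -0.42 to -0.12, adjusted p 0.0931) it missed the threshold. Over the alternative fits (edgeR or DESeq2), the adjusted p ranged from 0.000455 to 0.372 in Y551A and from 0.0474 to 0.472 in D647V. In Y551A-Dim the ethanol libraries held 14.2, 16.4 and 17.3 CPM and the treated ones 14.6, 15.96 and 18.3 CPM. These overlapped, and the response differed from WT by 0.58 (SE 0.13, adjusted p 0.0109), a call lost without WT dexamethasone replicate 2 (adjusted p 0.0523) or Y551A-Dim ethanol replicate 3 (0.0521).

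Cdkn1b (ENSMUSG00000003031.14, chr6:134920401-134925513, plus strand) was abundant, at 142 to 144 CPM in ethanol and 127 to 132 CPM with dexamethasone in WT of set 1 (-0.15, interval -0.24 to -0.05, adjusted p 0.0520). Over the alternative fits (edgeR or DESeq2), that adjusted p ranged from 0.00256 to 0.289. With hormone Cdkn1b was called in D647V-Tetra only in the main fits, where it went from 125, 128 and 133 CPM to 106, 111 and 113 CPM (-0.23, SE 0.06, adjusted p 0.0111), a call lost without dexamethasone replicate 1 (adjusted p 0.0577). Cdkn1c (ENSMUSG00000037664.13, chr7:143458339-143461050, minus strand) had a highest value of 0.258 CPM in set 1 and of 0.236 CPM in set 2. It was called in no comparison. In ethanol of set 2 it stood at 0.236 and 0.168 CPM in WT, between 0 and 0.102 CPM in D647V and between 0.0313 and 0.0573 CPM in D647V-Tetra. Each of these libraries held between 0 and 16 counts of the gene, with both mates of a pair counted. The log2 differences from WT were -1.69 (interval -3.53 to 0.15, adjusted p 0.268) in D647V and -2.05 (interval -3.98 to -0.12, adjusted p 0.113) in D647V-Tetra. Of the 10 genes, 5 (Cdkn1a, Cdkn1c, Gadd45a, Plk3 and Gas1) overlap an annotated gene on the opposite strand; counting used strand.

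**Figure D3:**
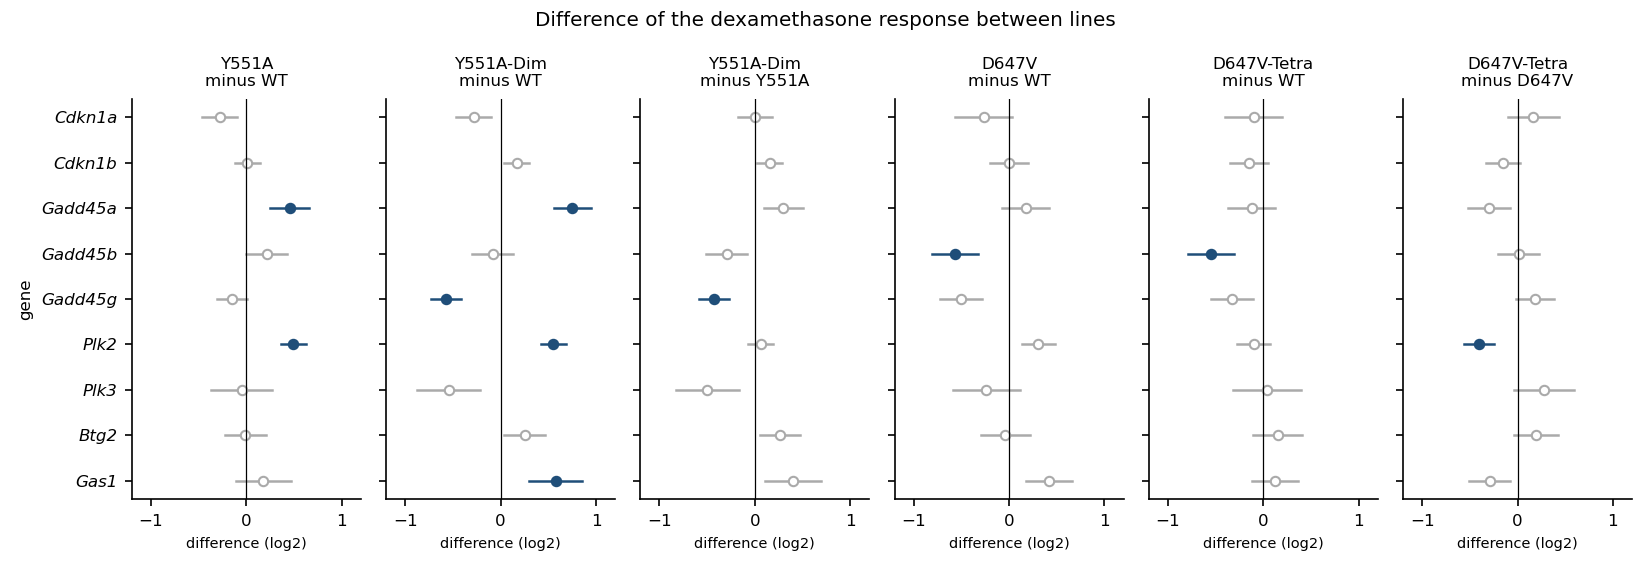
Difference of the dexamethasone response between lines of 1 library set (x axis, log2) for 9 members (y axis), with 95% intervals; filled blue points passed an adjusted p of 0.05. In Y551A-Dim minus WT the points of Gadd45a (0.75), Plk2 (0.55) and Gas1 (0.58) lie right of 0 and that of Gadd45g (-0.58) left of it, each towards a smaller response.

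Set against each other within a library, Cdkn1a and Gadd45a had nearly equal counts in WT in ethanol of set 1, a log2 ratio of 0.069 ± 0.04 (SD, n = 3), and with dexamethasone 1.39 ± 0.13 (SD, n = 3). The ratio thus changed by 1.32 in WT of set 1, by 0.58 in Y551A and by 0.28 in Y551A-Dim. In Y551A-Dim Cdkn1a rose by 0.31, while the change of Gadd45a was 0.023 and was not called. In set 2 the ratio changed by 1.38 in WT, 0.93 in D647V and 1.39 in D647V-Tetra. In Y551A in ethanol this ratio was already 1.75 ± 0.09 (SD, n = 3), above the value of hormone-treated WT.

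The log2 ratio of Cdkn1a to Plk2 changed with dexamethasone by 1.45 in WT of set 1, by 0.68 in Y551A and by 0.61 in Y551A-Dim. In set 2 it changed by 1.61 in WT, 1.03 in D647V and 1.60 in D647V-Tetra. The order of the lines was the same for both ratios within set 1, with WT first. For Plk2 the step from Y551A to Y551A-Dim was small beside the SD of 0.25 (n = 3) of the treated Y551A-Dim libraries. In set 2 WT and D647V-Tetra were both above D647V and close to each other. Both ratios share Cdkn1a, so their orders are not independent. The ratio needs no scaling between libraries, and it is given as a description with no test. Cdkn1a was taken as the induced gene and Gadd45a and Plk2 as repressed ones, so a rise of the ratios follows from that choice.

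**Figure D4:**
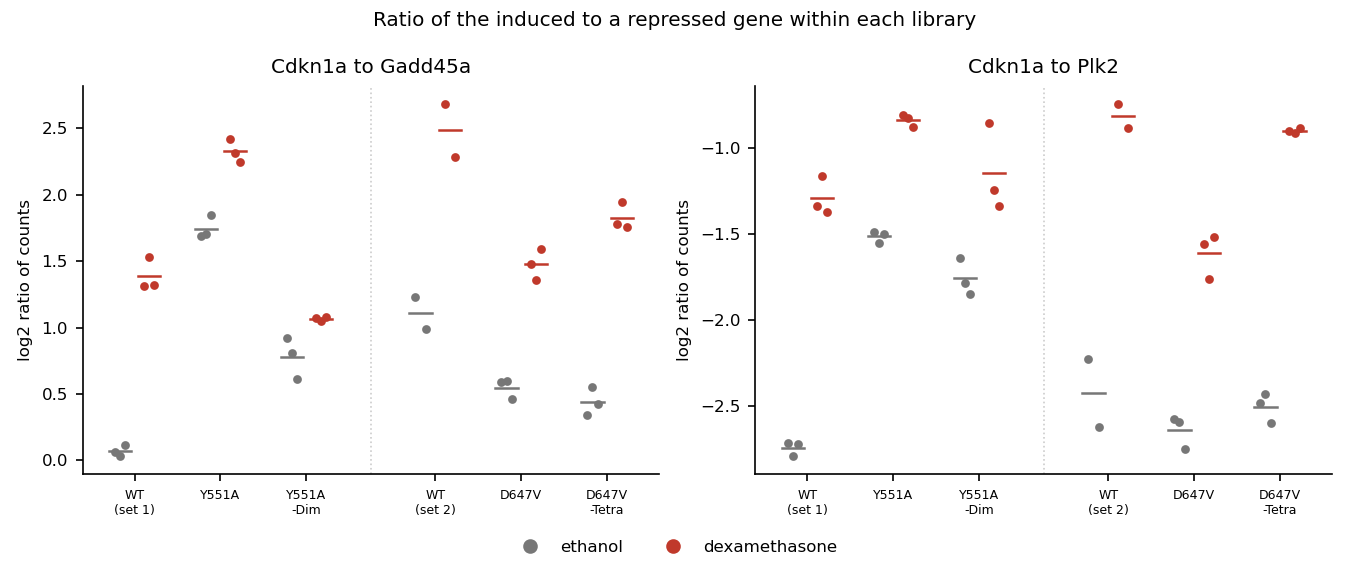
Log2 ratio of the counts of Cdkn1a to those of Gadd45a (left) and of Plk2 (right) in every library (y axis), by line (x axis); grey points are ethanol, red points dexamethasone and bars group means. The treated libraries are above the controls of their line in all 6 lines and sets, and in ethanol Y551A lies at 1.75 for Gadd45a where WT of set 1 lies at 0.069.

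The mutant lines of set 1 differed from WT before any hormone. In ethanol Y551A had more Cdkn1a (0.98, SE 0.06, adjusted p 4.66e-13), Btg2 (0.77, SE 0.07, adjusted p 6.22e-10) and Gadd45g (0.47, SE 0.05, adjusted p 2.65e-08). It had less Gas1 (-1.28, SE 0.09, adjusted p 1.32e-11), Gadd45a (-0.69, SE 0.06, adjusted p 1.62e-09), Gadd45b (-0.29), Plk2 (-0.25) and Cdkn1b (-0.18). Plk3 was not called (-0.15, interval -0.38 to 0.078). This comparison and the WT response to hormone share the 3 WT ethanol libraries. These 3 members up and 5 down compare with 18.9% of all genes up and 23.5% down, so a large share of the transcriptome differed between these lines.

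In Y551A-Dim in ethanol 2 members were higher, Gadd45g (0.39, SE 0.05, adjusted p 2.87e-06) and Cdkn1a (0.35, SE 0.06, adjusted p 0.000116), where 10% of genes were. Lower were 6 (13.3% of genes): Gas1 (-0.80, SE 0.09, adjusted p 2.69e-07), Plk2 (-0.64, SE 0.04, adjusted p 1.42e-11), Gadd45a (-0.37, SE 0.06, adjusted p 0.000111), Plk3 (-0.32), Gadd45b (-0.24) and Cdkn1b (-0.16). The Plk3 call was lost without WT replicate 1 (adjusted p 0.292) or 3 (0.0558), without Y551A-Dim replicate 2 (0.136) or 3 (0.148) and when only these 2 groups were fitted (0.0545); the Gadd45b call was lost without WT replicate 1 (0.0539) or 2 (0.0689) or Y551A-Dim replicate 1 (0.0696). Plk2 in Y551A-Dim thus stood in ethanol between the WT levels without and with hormone.

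In the lines of set 2, 1 and 3 members were called in ethanol. In D647V it was 1, Cdkn1a, which was lower (-0.36, SE 0.10, adjusted p 0.0282; 2.78% of genes were lower), and the call was lost without WT replicate 1 (-0.19, adjusted p 0.434), D647V replicate 1 (0.0653) or D647V replicate 3 (0.102) and when only these 2 groups were fitted (0.0626). In D647V-Tetra 3 members were higher (9.35% of genes were): Gadd45a (0.44, SE 0.08, adjusted p 0.000907), Gadd45b (0.32, SE 0.08, adjusted p 0.00850) and Gadd45g (0.25, SE 0.07, adjusted p 0.0236). The Gadd45b call was lost without WT replicate 2 (adjusted p 0.0909) and with only these 2 groups (0.0589), and the Gadd45g call without WT replicate 2 (0.178) or D647V-Tetra replicate 3 (0.0852) and with only these 2 groups (0.0609).

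**Figure D5:**
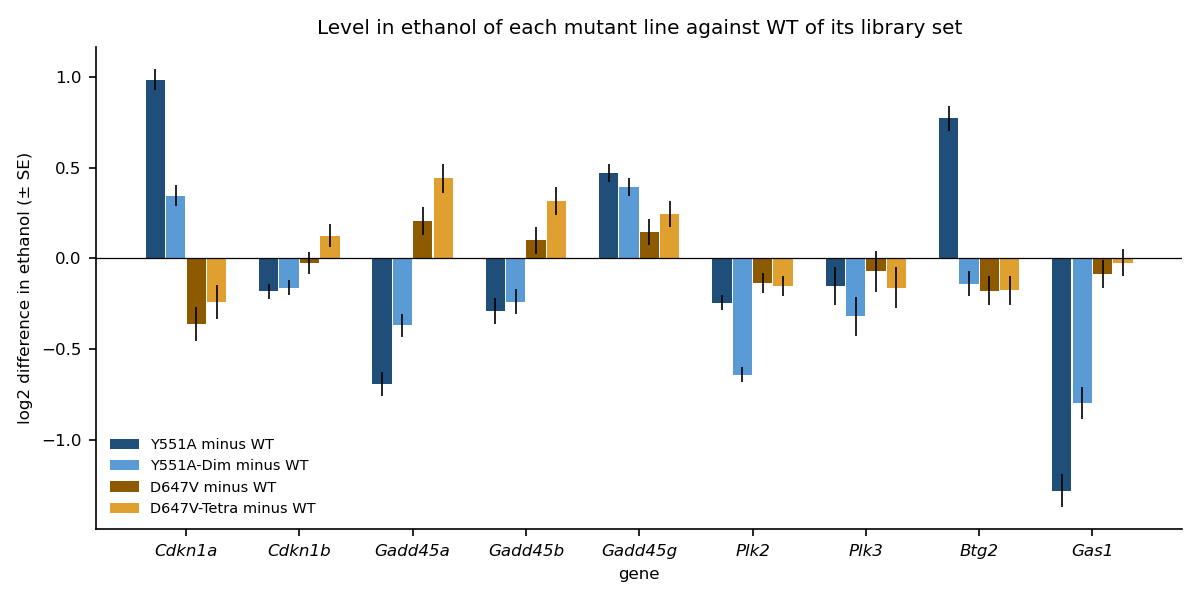
Log2 difference in ethanol (y axis) of each mutant line from WT of its library set for 9 members (x axis); bars start at 0 and error bars are ± 1 SE. The Y551A bars of Cdkn1a (0.98) and Gas1 (-1.28) lie farthest from 0 in either direction.

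Genes of the proliferating cell differed between the lines in ethanol. Of 24 genes of S and G2/M phase, 0 were called with dexamethasone in WT of either set by edgeR, with 1 (set 1) and 2 (set 2) at an unadjusted p under 0.05 and 0 and 1 called by DESeq2. In Y551A-Dim 1 was called down with dexamethasone by edgeR (0.192% of all genes were) and 4 by DESeq2, with 19 lower at an unadjusted p under 0.05. In D647V-Tetra edgeR called 1 up and 3 down (11.3% and 7.89% of all genes) and DESeq2 1 and 5. There 3 were higher and 10 lower at an unadjusted p under 0.05. In Y551A and D647V 0 were called by either method. Shares of all genes by DESeq2 or at an unadjusted p are not given here. In ethanol 21 of 24 were lower in Y551A than in WT (median -0.39, against -0.00055 over all genes tested), where 23.5% of all genes were. In Y551A-Dim 3 were higher and 7 lower, where 10% and 13.3% of all genes were, and the median was near 0 (-0.0059). In D647V 22 were higher (median 0.27), where 4.58% of all genes were, and in D647V-Tetra 21 were higher (median 0.30), where 9.35% were. The part of growth state in the ethanol levels of the arrest genes was not tested. Among the marker lists, the 5 basal epithelial markers summed to 19.96 CPM in Y551A in ethanol against 5.83 CPM in WT, with Krt14 at 19.2 against 3.45 CPM, Trp63 at 0.252 against 1.86 CPM and Krt5 at 0.0114 against 0 CPM. Of the 3 basal markers tested there, 1 was called higher and 1 lower. In set 2 in ethanol the basal sum was 8.84 CPM in WT, 4.14 CPM in D647V and 4.66 CPM in D647V-Tetra, with 2 of 4 tested markers called lower in each mutant. The 6 luminal markers summed to between 3.92 and 5.94 CPM over all groups, mostly Esr1; their part was not tested. The highest group sums of the other lists were 0.271 CPM for 6 immune markers, 0.468 CPM for 4 adipocyte markers, 3.21 CPM for 4 erythroid markers and 9.20 CPM for 4 endothelial markers.

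Of 6 tested genes of the BTG/TOB family and its deadenylase partners Cnot7 and Cnot8, 1 was called up and 1 down in WT of set 1, where 2% and 1.4% of all genes were, and the other 4 were not called. Tob2 rose (0.99, SE 0.05) and Btg1 fell (-0.53, SE 0.04) in WT of set 1, and both calls returned in WT of set 2 (1.08 and -0.60), Y551A (1.002 and -0.37), D647V (0.50 and -0.31) and D647V-Tetra (0.92 and -0.65). In Y551A-Dim Btg1 fell (-0.17) and Tob2 was not called, and both responses differed from WT (Btg1 0.36, SE 0.05; Tob2 -1.001, SE 0.07). Like Btg2, both encode antiproliferative proteins that bind the deadenylase complex.

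Among 28 tested p53 pathway genes, dexamethasone raised 2 and lowered 2 in WT of set 1, where it raised 2% and lowered 1.4% of all genes. Sesn1, which restrains growth signalling through mTORC1, rose by 0.57 (SE 0.06, adjusted p 4.48e-07), Ccng2, an unconventional cyclin linked to growth arrest, fell by 0.49 and Phlda3, which inhibits Akt, rose by 0.18. The list's median was -0.045, against -0.013 over all genes tested. Set 2 had 2 called up and 1 called down in WT, where 1.35% and 0.376% of all genes were. In Y551A 1 rose and 1 fell, where 1.43% and 0.415% of all genes did. Of 20 tested CDK inhibitors and G1 regulators beside the members, 1 was called in WT of set 1, the inhibitor Cdkn2d (-0.23, SE 0.06). There 1.4% of all genes were called down. In WT of set 2 0 were called by edgeR (1.72% of all genes were), with 1 at an unadjusted p under 0.05 and 0 called by DESeq2.

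Of 13 tested regulators of quiescence that respond to hormones and growth factors, 8 rose and 3 fell in WT of set 1 (median 0.30). Of all genes, 2% were called up there and 1.4% down. The list was chosen with earlier results of these data known. The transcription factors Klf9 (1.24, SE 0.05) and Cebpb (0.88, SE 0.06) and the inhibitor of differentiation Id1 (0.91, SE 0.05) had the lowest adjusted p. In Y551A-Dim 0 rose by edgeR (0.898% of all genes did), with 3 higher at an unadjusted p under 0.05 and 2 called up by DESeq2. There 1 fell (0.192% of genes did), and the responses of Klf9 (-1.18), Id1 (-0.71) and Cebpb (-0.76) were lower than in WT. Of 5 tested DNA-damage-inducible genes outside the Gadd45 family, 2 fell in WT of set 1, where 1.4% of all genes did. These were Ddit3, also known as Gadd153 or CHOP (by 0.50, SE 0.07), and Trib3, and no other was called. Of 13 partners and stress kinases downstream of the Gadd45 proteins, 1 was called in WT of either set, the p38 kinase Mapk14 (0.24 in set 1, SE 0.04). Of all genes, 2% were called up in WT of set 1 and 1.35% in WT of set 2. Of 6 tested Hedgehog genes beside Gas1, its fellow co-receptor Cdon (-0.22, SE 0.03) and the receptor Ptch1 (-0.37, SE 0.05) fell in WT of set 1 (1.4% of all genes did). In WT of set 2 Ptch1 alone was called by edgeR (-0.37, SE 0.08), where 0.376% of all genes fell. Of the growth-arrest-specific genes other than Gas1 (6 tested) and of the Polo-like kinases Plk1 and Plk4, 0 were called in WT of either set by edgeR or DESeq2, with 1 growth-arrest-specific gene lower in set 1 at an unadjusted p under 0.05.

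The genes whose levels followed each of the 3 main members most closely were ranked among 10182 genes by the lower of the Pearson correlations of log2 CPM over the 18 libraries of set 1 and the 16 of set 2. The libraries share 6 groups in each set, so these values describe differences between groups as much as between libraries. For Cdkn1a the closest were Irf2bp2 (0.91 and 0.92), Itga5 (0.94 and 0.89), Plin4 (0.92 and 0.89), Fam214b (0.90 and 0.88) and Epn2 (0.87 and 0.95). For Gadd45a they were Irf1 (0.94 and 0.95), Rin2 (0.92 and 0.92), Ddit3 (0.88 and 0.92), Tmem86a (0.87 and 0.87) and Aqp5 (0.92 and 0.86). For Plk2 they were Dusp10 (0.92 and 0.88), Bdnf (0.87 and 0.97), Plekho2 (0.87 and 0.83), Nab2 (0.87 and 0.83) and Snai2 (0.86 and 0.82). The 3 lists have no gene in common. Cdkn1a and Gadd45a themselves correlated at -0.87 in each set, and only the highest correlations were listed. The lists of these 2 genes therefore could not overlap.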

How the data were processed

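RNA-seq counts of 34 libraries were used. Per the file headers, the authors deposited raw counts per gene name, made with featureCounts 2.0.3 on exons of GENCODE vM21 (mm10), counting reads of the reverse strand, counting both mates of each pair and keeping duplicates; counts therefore exceed fragments. Per the submitters' processing notes, bcl2fastq 2.17, cutadapt and STAR came before. Per the labels' protocols, total RNA libraries were made in 2 batches with different stranded kits, with Drosophila S2 cells added as a spike-in; which library belongs to which batch is not given in the sources used here, and the spike-in was not used here. Nothing says that replicates came from separate cultures, so p-values measure the spread between these libraries.

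Each set was fitted alone in edgeR 4.0.16 (R 4.3.3) with filterByExpr, TMM scaling and a quasi-likelihood test over group means; p-values were adjusted over all genes tested (16140 in set 1, 17535 in set 2, 16540 for the 10 WT libraries). Members, lists and named genes were chosen with earlier results of these data known: all 10 members, at most 3 called genes per list by lowest adjusted p, and the 5 genes most like each of Cdkn1a, Gadd45a and Plk2. All 10 members passed the filter. Steps were tested on simulated data. Chi-square per degree of freedom between replicates was 2.86 to 70.4 over 32 pairs. Counting both mates of a pair raises this value, so it cannot show that every replicate was a separate library. Alternatives were DESeq2 1.42.0 and its size factors, no filter, a replicate block, only the groups compared, and leaving out each library. Promoters are from RefSeq.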

Additional observations from a re-analysis of the deposited data

Results flagged for a closer look

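Tests of the difference itself marked 10 differences of response between lines. In Y551A against WT these were Gadd45a (0.46) and Plk2 (0.49). In Y551A-Dim against WT they were Gadd45a (0.75), Gadd45g (-0.58), Plk2 (0.55) and Gas1 (0.58), and against Y551A it was Gadd45g (-0.43). In D647V against WT it was Gadd45b (-0.56), in D647V-Tetra against WT Gadd45b (-0.55) and in D647V-Tetra against D647V Plk2 (-0.41). Values are differences of log2 changes; their errors and the libraries whose removal ends a call stand in the report. Nr3c1 also differed between these lines, and its part was not tested.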

How the results depend on the processing

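All called changes kept their direction in every alternative run. Changes not called in the main fit, with Cdkn1c left aside, were called in the same direction in some runs. For responses this was so in 12 runs of other settings and 3 with 1 library left out. The counts were 17 and 9 for differences of response, and 2 and 2 in ethanol. The number of members called stayed within 1.5 times in WT of set 1, WT of set 2, D647V, D647V-Tetra, the differences Y551A-Dim minus WT and D647V-Tetra minus D647V, and the ethanol comparisons of Y551A and Y551A-Dim. Elsewhere it moved. With 1 library left out, it ranged from 3 to 5 in Y551A, 1 to 3 in Y551A-Dim, 1 to 2 in Y551A minus WT, 0 to 2 in D647V minus WT, in D647V-Tetra minus WT and between the WT sets, and 0 to 1 for D647V in ethanol. With only the groups compared, it was 1 in Y551A-Dim, 0 in D647V minus WT, 2 in D647V-Tetra minus WT, and in ethanol 0 for D647V and 1 for D647V-Tetra. Without a low-count filter it was 3 in Y551A-Dim minus Y551A, 2 in D647V minus WT, 2 in D647V-Tetra minus WT and 1 between the WT sets. DESeq2 called 3, 2 and 1 in the last 3 of these. The cause of these moves was not tested.

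Of 17 same-numbered pairs, 0 had deviations from their group means that correlated over 0.1 (-0.20 to 0.08). The 2 WT pairs of set 2 hold the same value, since their groups have 2 libraries each. With groups this small the check cannot show that the libraries were unpaired. A fit with the replicate number as a block called 1 member in Y551A minus WT, 0 in D647V minus WT and 0 for D647V in ethanol; the other comparisons stayed within 1.5 times. The calls lost under the block were Btg2 in Y551A-Dim (0.28, adjusted p 0.0604), Gadd45a in Y551A minus WT (0.46, 0.0567), Gadd45b in D647V minus WT (-0.56, 0.125), and in ethanol Cdkn1a in D647V (-0.34, 0.0638) and Gadd45g in D647V-Tetra (0.23, 0.0580).

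Among the called changes no direction turned; it turned for these changes that were not called. With 1 library left out, the log2 ranges were these. In the response of WT set 1, Btg2 from -0.0143 to 0.0791. In the response of Y551A, Btg2 from -0.0207 to 0.0493. In the response of Y551A-Dim, Cdkn1b from -0.0133 to 0.0533, Gadd45a from -0.0742 to 0.0847, Gadd45b from -0.0593 to 0.00183, Plk3 from -0.12 to 0.0718, Gas1 from -0.0616 to 0.0948. In the response of WT set 2, Cdkn1b from -0.19 to 0.044, Btg2 from -0.0978 to 0.13. In the difference Y551A minus WT, Cdkn1b from -0.0319 to 0.0474, Plk3 from -0.19 to 0.0385, Btg2 from -0.0622 to 0.0313. In the difference Y551A-Dim minus Y551A, Cdkn1a from -0.10 to 0.0578. In the difference D647V minus WT, Cdkn1b from -0.12 to 0.11, Btg2 from -0.16 to 0.0697. In the difference D647V-Tetra minus WT, Cdkn1a from -0.28 to 0.0453, Plk3 from -0.11 to 0.20. In the difference D647V-Tetra minus D647V, Gadd45b from -0.0451 to 0.0634. In the difference WT set 2 minus WT set 1, Cdkn1b from -0.0475 to 0.18, Gadd45a from -0.0124 to 0.22, Plk2 from -0.0252 to 0.0515, Plk3 from -0.079 to 0.23, Btg2 from -0.13 to 0.0924. In ethanol, Y551A minus WT, Plk3 from -0.22 to 0.00727. In ethanol, D647V minus WT, Cdkn1b from -0.14 to 0.0952, Plk3 from -0.17 to 0.0359. In ethanol, D647V-Tetra minus WT, Gas1 from -0.0778 to 0.0498. Other settings turned Btg2 in Y551A minus WT (0.00271 without a filter), Cdkn1a in Y551A-Dim minus Y551A (0.00151 with DESeq2's size factors, 0.00179 by DESeq2) and Gadd45b in D647V-Tetra minus D647V (-0.00198 with only the groups compared).

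The ratios of Cdkn1a to Gadd45a and to Plk2 kept their direction under a pseudocount of 1 and without each library. Counts were lowest for Cdkn1c, which had between 0 and 16 counts in each ethanol library of set 2.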
